A study of Mus musculus with 16 samples.

Results

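The acute phase proteins were followed as 10 genes in cultured mouse hepatocytes: the serum amyloids *Saa1*, *Saa2*, *Saa3* and *Saa4*, the orosomucoids *Orm1* and *Orm2*, haptoglobin (*Hp*), haemopexin (*Hpx*), lipocalin 2 (*Lcn2*) and C-reactive protein (*Crp*). They were chosen by name, as every row of the count table carrying one of these symbols, which gave 10 of 55450 genes. Bulk RNA-seq was available for 16 libraries of primary hepatocytes from wild-type mice, 4 per treatment, with replicates lettered A to D. The mice were male C57BL/6J, 8 to 12 weeks old. All cells were kept overnight in DMEM with 5% serum, insulin, transferrin and selenium, and the labels name no added cytokine. They were left untreated or received 10 mM sodium itaconate, a defined mixture of lipids at a 10-fold dilution, or both. Itaconate is a carboxylic acid that activated macrophages make from *cis*-aconitate, and the mixture holds cholesterol and 6 fatty acids, among them palmitic, oleic and linoleic acid. The labels do not say whether a letter stands for an animal, a culture or a day, so the p-values measure the spread between these libraries, which may be technical.

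The acute phase response is the change in plasma proteins that follows infection or injury, and the hepatocyte is its main source. Interleukin 6 acts through its receptor, gp130 (*Il6st*) and STAT3, interleukin 1 and TNF act through NF-κB, and C/EBPβ and C/EBPδ cooperate with both at the promoters of these genes. Serum amyloids A1, A2 and A3 travel with high-density lipoprotein, orosomucoids carry lipophilic ligands, haptoglobin and haemopexin capture free haemoglobin and haem, lipocalin 2 withholds iron from bacteria by binding their siderophores, and C-reactive protein is a pentraxin that binds phosphocholine. In the mouse, unlike in humans, C-reactive protein is only a minor acute phase reactant.

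Because several members are near copies of each other, part of their coding sequence is shown first, to show where reads can be told apart. The serum amyloid genes lie together on chromosome 7 (GRCm38): *Saa3* at chr7:46711998-46715700, *Saa4* at chr7:46727998-46732603 and *Saa1* at chr7:46740497-46742980 on the minus strand, and *Saa2* at chr7:46751790-46754313 on the plus strand. Coding bases 250 to 309 of the principal transcripts, counted from the A of the start codon, are given 5′ to 3′, with capitals at the 26 positions where the 3 genes are not all alike.

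Saa1: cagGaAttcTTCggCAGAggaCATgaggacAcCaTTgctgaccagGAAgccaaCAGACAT
Saa2: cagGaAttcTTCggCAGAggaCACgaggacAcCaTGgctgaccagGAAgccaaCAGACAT
Saa3: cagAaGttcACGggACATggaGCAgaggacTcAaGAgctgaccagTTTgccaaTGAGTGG

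The *Saa1* and *Saa2* coding sequences differed at 18 of 366 aligned bases, an identity of 95.1%, whereas *Saa1* and *Saa3* shared 76.0%. Of the 50-base windows of the *Saa1* transcript, 13.2% occurred unchanged in that of *Saa2* and 1.61% in that of *Saa3*. Reads falling wholly in such windows cannot be assigned by sequence alone, and the deposited expected counts divide them between genes by estimation. The split between *Saa1* and *Saa2* is therefore less certain than their sum, and *Saa3* and *Saa4* were told apart over nearly all of their length.

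A window of equal length is given for the orosomucoids, which lie on the plus strand of chromosome 4. *Orm1* is at chr4:63344560-63348163 and *Orm2* at chr4:63362449-63365878, with the promoter of *Orm3*, the third gene of the family, between them. Coding bases 138 to 197 are shown for *Orm1* and *Orm2*, and 135 to 194 for *Orm3*. Capitals mark the 25 positions where the 3 are not all alike.

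Orm1: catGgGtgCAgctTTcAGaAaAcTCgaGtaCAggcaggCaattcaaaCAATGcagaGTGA
Orm2: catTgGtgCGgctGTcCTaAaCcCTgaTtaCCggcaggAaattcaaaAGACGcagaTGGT
Orm3: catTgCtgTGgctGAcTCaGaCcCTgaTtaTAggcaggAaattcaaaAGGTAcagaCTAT

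*Orm1* and *Orm2* were 89.9% identical over 621 coding bases, and 20.4% of the 50-base windows of *Orm1* recurred in *Orm2*. *Orm3* was 88.4% identical to *Orm2* and 86.4% to *Orm1*. The remaining members have no such copy among the genes followed here: *Hp* is at chr8:109575128-109579172, *Hpx* at chr7:105591613-105600137 and *Lcn2* at chr2:32384633-32388252 on the minus strand, and *Crp* at chr1:172698055-172833031 on the plus strand.

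Promoters are shown for the members that moved most, *Saa3* and *Crp*, for *Orm2*, which moved the other way, and for *Saa1*. The 250 bases before the RefSeq transcription start (GRCm38.p6) are printed in the direction of transcription, at chr7:46715677-46715926 for *Saa3* (minus strand), chr1:172697806-172698055 for *Crp* (plus), chr4:63362199-63362448 for *Orm2* (plus) and chr7:46742981-46743230 for *Saa1* (minus). Capitals mark the letters TTGCNNAA, the core bound by C/EBP proteins, on either strand.

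Saa3: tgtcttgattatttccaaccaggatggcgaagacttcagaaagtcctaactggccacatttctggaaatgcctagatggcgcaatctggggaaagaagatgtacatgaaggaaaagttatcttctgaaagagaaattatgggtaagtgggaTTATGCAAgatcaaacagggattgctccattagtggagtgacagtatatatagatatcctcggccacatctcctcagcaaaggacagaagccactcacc
Crp: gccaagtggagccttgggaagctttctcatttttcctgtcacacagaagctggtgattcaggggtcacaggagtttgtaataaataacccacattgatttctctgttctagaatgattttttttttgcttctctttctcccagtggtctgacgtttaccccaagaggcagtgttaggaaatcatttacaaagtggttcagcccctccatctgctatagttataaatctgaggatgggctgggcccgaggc
Orm2: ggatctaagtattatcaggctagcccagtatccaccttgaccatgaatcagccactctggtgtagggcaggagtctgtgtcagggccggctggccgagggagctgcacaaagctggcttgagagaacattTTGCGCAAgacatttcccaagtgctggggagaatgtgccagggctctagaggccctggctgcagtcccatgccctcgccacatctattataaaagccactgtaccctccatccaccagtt
Saa1: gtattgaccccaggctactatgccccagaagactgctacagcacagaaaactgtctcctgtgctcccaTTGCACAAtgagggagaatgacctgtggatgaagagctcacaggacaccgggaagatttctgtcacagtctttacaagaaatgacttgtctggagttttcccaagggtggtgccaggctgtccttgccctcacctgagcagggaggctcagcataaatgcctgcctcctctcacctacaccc

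RefSeq promoters of 300 bases, 250 before the start and 50 from it on, were at hand for 8 of the 10 members. TTGCNNAA occurred in 7 of these 8, all but *Crp*, and in 10.8% of all 32851 mouse promoters of that length. It lay 99 to 92 bases before the start in *Saa3*, 120 to 113 in *Orm2*, 182 to 175 in *Saa1* and 183 to 176 in *Saa2*, so the gene that fell most and the gene that rose both held it. The promoters of *Saa1* and *Saa2* are near copies with the same letters, TTGCACAA, so the 7 are not separate cases. Neither the STAT palindrome TTCNNNGAA, present in 8.3% of all promoters, nor the NF-κB consensus, present in 8.46%, matched in a member within these 300 bases. CTGGGAA, an interleukin 6 response element found in 11.1% of promoters, matched in none of the 8 members and once in *Orm3*. The matches are letters only, and binding was not measured.

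The acute phase genes were among the most abundant hepatocyte transcripts in untreated cells. Per length, as TPM (transcript counts scaled by length and library total), the order was *Hpx* (11082 ± 1717, SD, n = 4), *Hp* (5878 ± 945), *Saa1* (4861 ± 516), *Saa2* (4303 ± 772), *Orm1* (2620 ± 428), *Lcn2* (1865 ± 479), *Orm2* (495 ± 36.1), *Saa3* (388 ± 62.0), *Crp* (322 ± 68.3) and *Saa4* (72.0 ± 8.43). *Hpx* ranked 4th and *Saa4* 1852nd of 21675 genes with a read in untreated cells. The ranges of neighbours overlapped for *Hp* and *Saa1*, *Saa1* and *Saa2*, *Orm1* and *Lcn2*, and *Saa3* and *Crp*. Within each of the 4 untreated libraries, however, the first gene of each pair was above the second, by 1.06 to 1.24 times for *Saa1* over *Saa2* and by 1.04 to 1.54 times for *Saa3* over *Crp*. *Hpx* stood above *Hp*, *Saa2* above *Orm1*, *Lcn2* above *Orm2*, *Orm2* above *Saa3* and *Crp* above *Saa4* in every untreated library. The same order of means held with itaconate alone, but with lipid *Crp* (210 ± 21.9 TPM) stood above *Saa3* (190 ± 19.8), and likewise with lipid + itaconate (242 ± 60.7 and 216 ± 16.7), with overlapping ranges in both. *Crp* was above *Saa3* in 3 of 4 libraries of each of these treatments. *Orm2*, at 654 ± 103 TPM with lipid and 681 ± 125 with both, stayed below *Lcn2* (1699.7 ± 460 and 1511 ± 166) and was separated from *Crp* and *Saa3* by a wider gap than in untreated cells. Together the 10 genes took 1.325% to 2.184% of all counts in a library.

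Library totals ran from 22346049 to 35512004 expected counts, and mitochondrial transcripts took 3.27% to 6.01% of them. No pair of libraries of a treatment agreed within counting noise. Replicate B of lipid + itaconate stood apart, with a chi-square per gene of 87.0 to 119.7 against the other 3 libraries of its treatment, where the highest value of any other pair was 52.4. Without that library the number of acute phase genes called was the same in all 5 comparisons. All 12 hepatocyte markers passed the filter on low counts, with *Alb* at a mean of 35227 CPM (counts scaled by TMM and library total) in untreated cells. In bulk libraries, fewer cells of a type and less RNA per cell cannot be told apart.

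The acute phase genes also differed between replicate letters. For 9 of the 10 genes, the means over the 4 treatments in letters A and B were both higher than those in C and D, the exception being *Orm2*. *Lcn2* averaged 1012 CPM in A and 959 in B against 595 in C and 661 in D, and *Hpx* 10130 and 9330 against 6975 and 7547. *Orm1* showed the same step, at 1275 and 1302 CPM against 885 and 925. The letter was therefore a term of the model, and changes are given within letters.

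**Figure D1:**
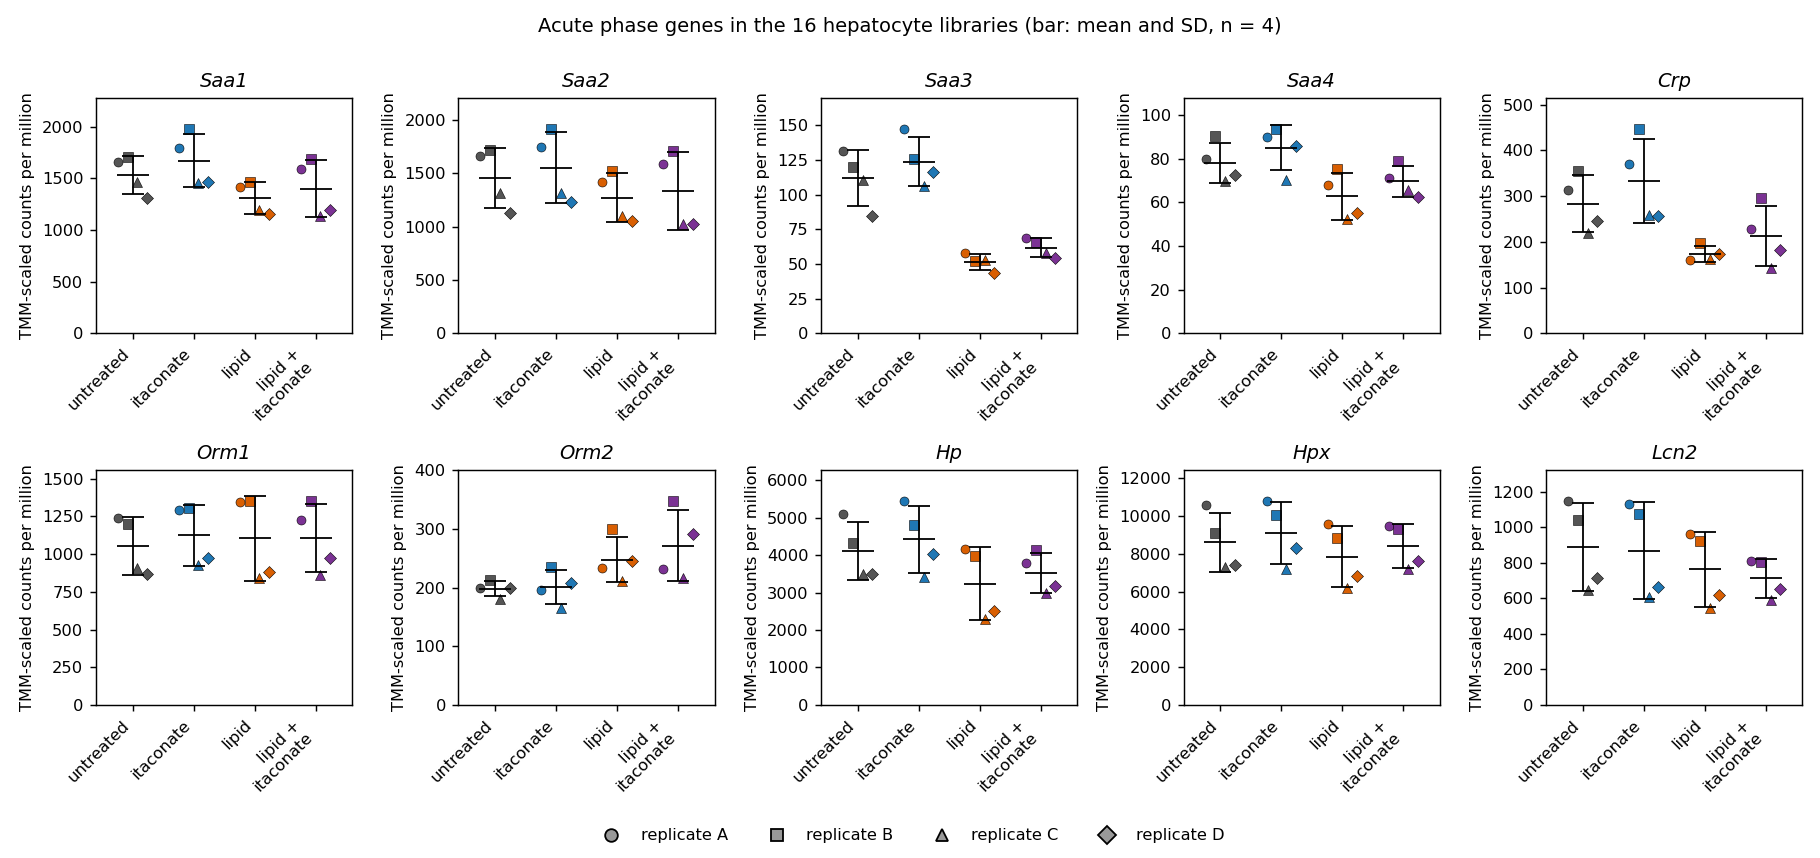
Level of each acute phase gene in every library, in CPM (vertical axis, from 0) by treatment, with the replicate letter given by the marker shape and the mean and SD of 4 libraries in black. *Saa3* lies between 43.7 and 68.7 in all 8 libraries with lipid and between 84.3 and 147 in all 8 without, whereas letters A and B stand above C and D within treatments for *Lcn2*, *Hpx* and *Orm1*.

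The first question was what the lipid mixture did to these genes. Relative to untreated cells, the lipid mixture lowered 8 acute phase genes and raised 1 (edgeR quasi-likelihood test, Benjamini-Hochberg adjusted p under 0.05 over 11675 genes). Over all genes tested, 23.7% were lower and 23.8% higher with lipid, which is the background for the 8 lower and 1 higher of 10. Over the 10 acute phase genes the log2 fold change had a median of -0.23, and over all genes of 0.0047. *Saa3* and *Crp* carried the large changes. The ranges of the lipid and untreated libraries did not overlap for these 2 genes, which was the case for 32.5% of all genes tested.

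*Saa3*, the serum amyloid made in many tissues as well as the liver, fell most. It measured 132, 120, 111 and 84.3 CPM in untreated libraries A to D and 57.8, 52.0, 52.7 and 43.7 CPM in the lipid libraries. Every lipid library was lower than every untreated library, and the change within letters ran from -48.1% to -56.8%. The log2 fold change was -1.11 (SE 0.067, adjusted p = 9.08e-09, edgeR), the 119th lowest of 11675 genes.

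*Crp* fell next. It measured 313, 355, 220 and 244 CPM untreated and 161, 198, 163 and 173 CPM with lipid. The lipid libraries lay close together and below all untreated ones, although the change within letters varied from -26.03% to -48.6%. The log2 fold change was -0.67 (SE 0.099, adjusted p = 5.38e-05, edgeR).

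The other serum amyloids fell by smaller amounts, and in all 4 letters. *Saa4*, a constitutively expressed form, went from 78.0 ± 9.21 to 62.7 ± 10.8 CPM (SD, n = 4; log2 fold change -0.32, SE 0.056, adjusted p = 0.000229, edgeR). *Saa1* measured 1656, 1704, 1466 and 1307 CPM untreated and 1414, 1462, 1189 and 1156 with lipid (-0.23, SE 0.053, adjusted p = 0.00204). The 2 groups of *Saa1* libraries overlapped, with letters A and B above C and D in both, but each lipid library differed from the untreated library of its letter by -11.5% to -18.8%. *Saa2* changed by -0.19 (SE 0.054, adjusted p = 0.00894). With *Saa1* and *Saa2* counted as 1 feature, the fall was -0.21 (SE 0.053, adjusted p = 0.00433), so it did not rest on how shared reads were divided.

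The scavengers of haemoglobin and haem also fell. *Hp* measured 5106, 4317, 3504 and 3486 CPM untreated and 4166, 3965, 2298 and 2517 with lipid. The change within letters ran from -8.15% to -34.4%, and the groups overlapped (log2 fold change -0.37, SE 0.079, adjusted p = 0.00122, edgeR). *Hpx* changed by -3.40% to -15.3% within letters (-0.14, SE 0.050, adjusted p = 0.0314). That call was lost without untreated replicate A (adjusted p = 0.126) or C (0.0920), or without lipid replicate C (0.108) or D (0.0958).

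*Lcn2* was lower in every letter, with changes of -11.2% to -16.1%. Its libraries measured 1149, 1041, 644 and 713 CPM untreated and 964, 924, 543 and 617 with lipid (-0.22, SE 0.067, adjusted p = 0.0139, edgeR). Letters A and B stayed above C and D in both groups, so the ranges overlapped widely, and without untreated replicate A the adjusted p was 0.0623.

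The orosomucoids departed from the other members. *Orm2* rose, from 199, 213, 181 and 200 CPM untreated to 233, 301, 211 and 246 with lipid. It was higher in all 4 letters, by 16.7% to 40.8%, although lipid replicate C did not exceed untreated replicate B (log2 fold change 0.31, SE 0.064, adjusted p = 0.00097, edgeR). *Orm1*, the more abundant gene of the family, measured 1240, 1196, 910 and 866 CPM untreated and 1342, 1355, 839 and 881 with lipid. It was higher in 3 of 4 letters (0.05, SE 0.054, adjusted p = 0.457). *Orm3*, which is no member, rose from 2.39 ± 0.572 to 4.55 ± 0.922 CPM (0.93, SE 0.19, adjusted p = 0.000932). With all 3 orosomucoids counted as 1 feature, which *Orm1* dominates, the change did not pass (0.10, SE 0.055, adjusted p = 0.133), so the rise of *Orm2* rests on the counts assigned to it apart from *Orm1*.

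Of these 9 calls, 6 were lost without the letter term, and *Saa3*, *Saa4* and *Crp* still passed. With total counts as library size instead of TMM, *Saa2* (adjusted p = 0.0660), *Hpx* (0.369) and *Lcn2* (0.140) did not pass. A change of at least 1.5-fold was reached by *Saa3* and *Crp* only.

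The lipid mixture was also added to cells that received itaconate, a comparison that shares no library with the previous one. Both came from the same model of all 16 libraries, with common letter terms and a common estimate of spread, so they are not independent. With lipid in the presence of itaconate, 7 genes were lower and 1 higher, and the background was 23.5% lower and 23.5% higher over all genes. The 7 were *Saa1*, *Saa2*, *Saa3*, *Saa4*, *Crp*, *Hp* and *Lcn2*, each of which also fell with lipid alone, and *Orm2* again rose. Over the 10 acute phase genes the log2 fold change had a median of -0.25, against 0.0041 for all genes. Only *Saa3* had ranges that did not overlap, a property of 31.4% of all genes tested.

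*Saa3* measured 147, 126, 106 and 116 CPM with itaconate alone and 68.7, 65.9, 57.7 and 54.3 with lipid + itaconate. The change within letters ran from -45.7% to -53.4% (log2 fold change -1.01, SE 0.066, adjusted p = 4.21e-08, edgeR). *Crp* measured 370, 447, 258 and 257 CPM with itaconate and 227, 296, 144 and 182 with both (-0.66, SE 0.098, adjusted p = 7.5e-05). *Crp* fell in all 4 letters, but replicate B of lipid + itaconate lay above itaconate replicates C and D.

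*Hp* changed by -0.32 (SE 0.078, adjusted p = 0.00404, edgeR), *Saa4* by -0.29 (SE 0.055), *Saa1* by -0.26 (SE 0.053), *Lcn2* by -0.24 (SE 0.067) and *Saa2* by -0.23 (SE 0.054). All 5 were lower in 4 of 4 letters. *Hpx* was lower in 3 of 4 letters and did not pass (-0.11, SE 0.050, adjusted p = 0.0973), except with DESeq2 (0.0243) or without lipid + itaconate replicate C (0.0432). *Orm2* measured 196, 235, 165 and 207 CPM with itaconate and 231, 348, 216 and 291 with both, an increase of 17.96% to 48.4% within letters (0.43, SE 0.063, adjusted p = 7.21e-05). *Orm1* was at 1124 ± 201 and 1105 ± 224 CPM (-0.03, SE 0.054, adjusted p = 0.685). Without the letter term 3 genes passed, *Saa3*, *Crp* and *Orm2*, and with total counts as library size *Lcn2* did not (0.0586). A change of at least 1.5-fold was again reached by *Saa3* and *Crp*.

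**Figure D2:**
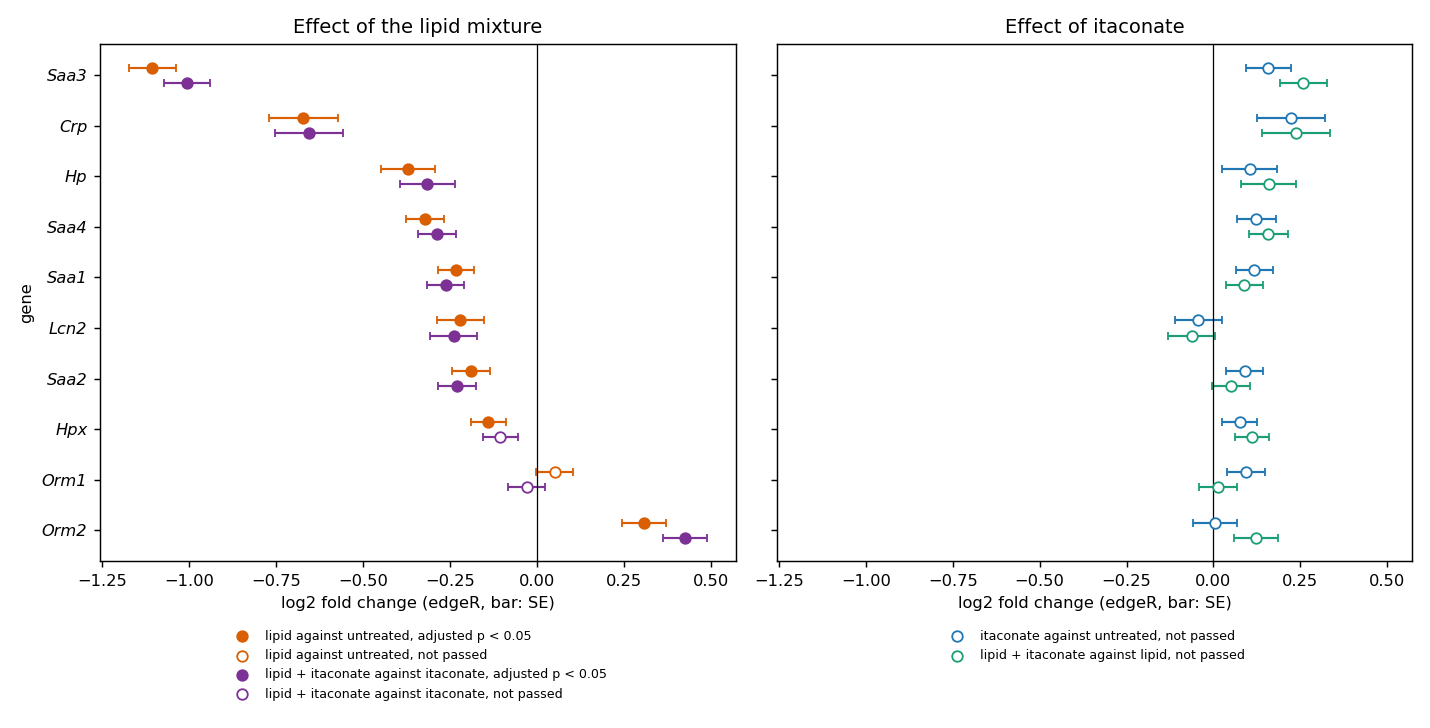
Log2 fold change (horizontal axis, bars are SE) of each gene for the lipid mixture without and with itaconate (left) and for itaconate without and with lipid (right), with filled points where the adjusted p was under 0.05. *Saa3* and *Crp* lie farthest left for lipid in both settings, *Orm2* lies to the right, and no point is filled for itaconate.

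The second question was whether itaconate changed these genes. Its comparisons use the same untreated and lipid libraries as those of lipid, so the values are given side by side and are not independent. Without lipid, none of the 10 passed (edgeR, adjusted p 0.173 to 0.972), where 4.91% of all genes did. At an unadjusted p under 0.05 there were 4, against 21.3% of all genes, and DESeq2 also called 0. The log2 fold change was above 0 for 9 of the 10 and below 0 for 1, with a median of 0.099, against -0.0019 for all genes. *Crp* had the highest value, at 0.22 (SE 0.097, adjusted p = 0.203), and was higher in 4 of 4 letters, by 5.12% to 25.9%. The adjusted p of *Crp* ran from 0.000664 to 0.670 over the alternatives, and it passed with no filter on low genes and when the model held just the 8 untreated and itaconate libraries. *Saa3* was at 112 ± 20.2 CPM untreated and 124 ± 17.6 with itaconate (0.16, SE 0.065, adjusted p = 0.173). *Saa1* and *Saa4* were the other 2 with an unadjusted p under 0.05, at 0.12 each.

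In lipid-treated cells, itaconate again gave 0 calls in edgeR, with 2.58% of all genes called. At an unadjusted p under 0.05 there were 4, *Saa3*, *Saa4*, *Crp* and *Hpx*, against 17.3% of all genes, and DESeq2 called *Saa3*. The log2 fold change was again above 0 for 9 of the 10, with a median of 0.12, against -0.00013 for all genes. *Saa3* was higher with lipid + itaconate than with lipid in every letter, by 9.37% to 26.8% (log2 fold change 0.26, SE 0.068, adjusted p = 0.0550). It lay just outside the threshold, and its adjusted p ran from 0.000549 to 0.525 over the alternatives. It passed in 6 of 24 of them: with DESeq2 (0.0164), after omission of lipid + itaconate replicate C (0.0383), untreated replicate D (0.0366), itaconate replicate C (0.0391) or itaconate replicate D (0.0458), and it also passed with no filter on low genes. *Crp* was higher in 3 of 4 letters (0.24, SE 0.099, adjusted p = 0.220), and was called without lipid + itaconate replicate C (0.0479). *Hp*, *Saa4* and *Hpx* were at 0.16, 0.16 and 0.11, and *Orm1* at 0.01 (-0.04 with total counts as library size). *Lcn2* was at -0.06 (SE 0.068, adjusted p = 0.676) and at 0.0058 without lipid + itaconate replicate A.

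Whether itaconate acted differently with and without lipid was tested as an interaction. None of the 10 genes passed (adjusted p 0.760 to 0.985), none had an unadjusted p under 0.05, and DESeq2 called 0. Of all genes, 0.00857% passed and 8.6% had an unadjusted p under 0.05. The interaction estimates ran from -0.08 (*Orm1*) to 0.12 (*Orm2*), with SEs of 0.071 to 0.138. For *Saa3* it was 0.10 (SE 0.094), on the log2 scale.

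The genes of a family could change in share even where each kept its direction. *Saa3* made up 3.597% ± 0.263 of the *Saa1*, *Saa2* and *Saa3* counts in untreated libraries and 1.98% ± 0.222 with lipid (n = 4 each), and was lower in all 4 letters. With itaconate the share was 3.74% ± 0.443 and with lipid + itaconate 2.25% ± 0.306. Both lipid differences had an exact two-sided permutation p of 0.0286, the smallest that 4 against 4 libraries allow, and an adjusted p of 0.171 over the 12 comparisons of shares. *Saa2* stayed close to *Saa1*, at 48.0% to 49.2% of their sum in the 4 treatments (exact permutation p 0.543 or above). *Orm2* took 16.1% ± 2.09 of the *Orm1* and *Orm2* counts untreated and 18.7% ± 3.01 with lipid (exact permutation p = 0.229, adjusted 0.549), and was higher in all 4 letters. It took 15.3% ± 1.78 with itaconate and 19.8% ± 2.97 with lipid + itaconate (exact permutation p = 0.0571, adjusted 0.229). The permutations moved libraries freely, without regard to the replicate letter, so the spread between letters enters these p-values. These shares were chosen after the values of the genes had been seen.

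**Figure D3:**
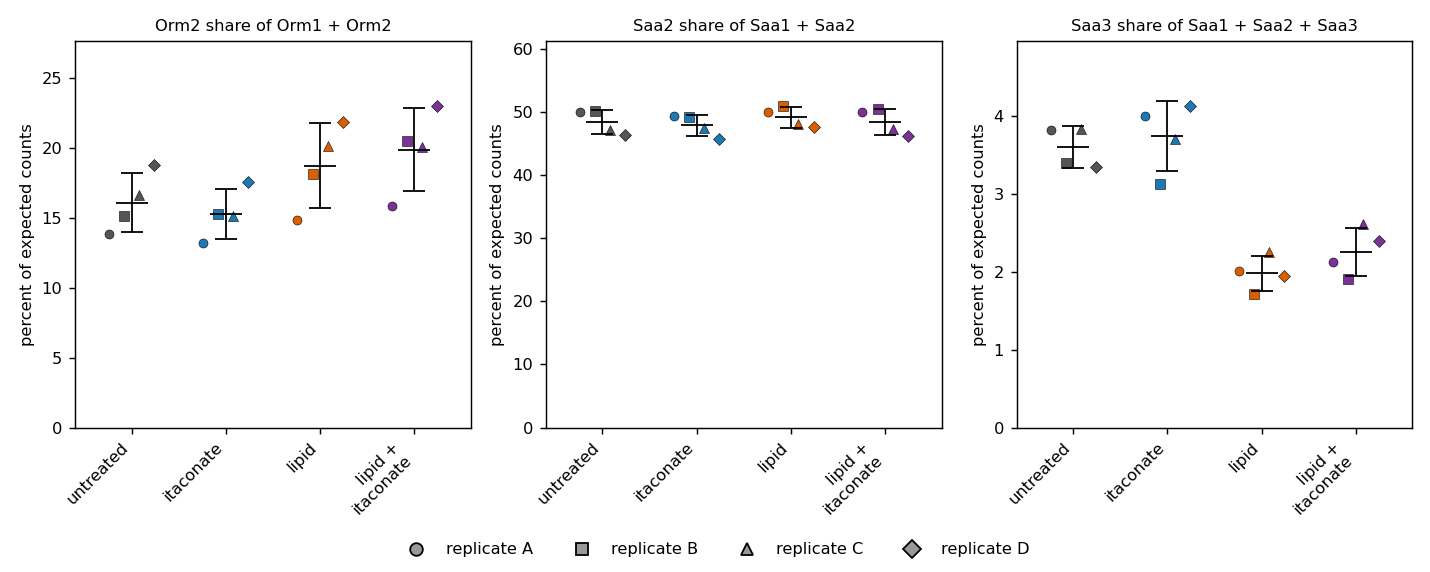
Share of one family member in the summed expected counts of its family (vertical axis, percent, from 0) in each library by treatment, with replicate letters as marker shapes and the mean and SD of 4 libraries in black. The *Saa2* share is level near 48% to 49%, the *Saa3* share lies near 2% with lipid and above 3% without, and the *Orm2* share is higher with lipid in every letter.

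The other positive acute phase proteins were taken from a list of 29 genes, of which 28 passed the filter of 1 CPM. With lipid, 15 fell, 3 rose and 10 did not pass, with a median log2 fold change of -0.18, where 23.7% of all genes were lower and 23.8% higher. *Steap4*, a metalloreductase, fell most (-1.27, SE 0.10, adjusted p = 1.34e-07, edgeR), from 442 to 588 CPM over the untreated libraries to 152 to 293 with lipid. Ceruloplasmin (*Cp*, -0.89), serum amyloid P (*Apcs*, -0.87), the pentraxin that is a major acute phase protein in mice, and *Orm3* (0.93) completed the 4 largest changes. Fibrinogen β (*Fgb*) fell by 0.41 and the antichymotrypsin *Serpina3n* by 0.28 on the log2 scale. The other genes that rose were hepcidin (*Hamp*, 0.18) and *Itih3* (0.14), an inter-α-trypsin inhibitor heavy chain, calls that were lost without some libraries (highest adjusted p 0.103 and 0.127). With lipid in the presence of itaconate, 14 fell and 1, *Orm3* (0.84), rose, the largest falls being those of *Steap4* (-1.01), *Il1rn* (-0.83) and *Cp* (-0.78). In that comparison 23.5% of all genes were lower and 23.5% higher, the background for this list and those that follow. Itaconate in lipid-treated cells raised *Steap4* (0.46, SE 0.10, adjusted p = 0.0264) and *Apcs* (0.31, SE 0.067, adjusted p = 0.0269) and lowered *Itih3* by 0.20. *Steap4* lost that call without any of 4 libraries, lipid C and D and lipid + itaconate A and B (highest adjusted p 0.110), and *Apcs* without any of 5 libraries, lipid A, B and C and lipid + itaconate B and D (highest 0.0945). *Itih3* lost it in 13 of 16 omissions. Itaconate without lipid changed 0 of 28 in edgeR, and 1 had an unadjusted p under 0.05.

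The negative acute phase proteins are those whose plasma levels drop in inflammation. With lipid, 6 of 13 fell, 2 rose and 5 did not pass (median -0.15), beside 23.7% lower and 23.8% higher over all genes. Thyroxine-binding globulin (*Serpina7*) changed by -0.58, *Apoa2* by -0.27, *Serpina6* by -0.26 and *Alb* by -0.18 (SE 0.057, adjusted p = 0.0142, edgeR). Fetuin A (*Ahsg*) rose by 0.21 and transferrin (*Trf*) by 0.15, the latter lost in 5 of 16 omissions of a library (highest adjusted p 0.124). The call of *Alb* was lost without lipid replicate A or B (highest adjusted p 0.0533), and that of *Serpina6* without untreated replicate C (0.0579). In the presence of itaconate, 6 fell, led by *Serpina7* (-0.47), and the same 2, *Ahsg* and *Trf*, rose. Itaconate changed 0 of the 13 in edgeR in either setting, with 0 at an unadjusted p under 0.05 without lipid and 1 with it.

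Of 10 inducing cytokines listed, 3 passed the filter, *Clcf1*, *Lif* and *Ctf1*, with 4761, 1900 and 1123 counts over all 16 libraries. The same libraries together held 5 counts of *Il6*, 31 of *Il1b*, 69 of *Tnf*, 1 of *Osm* and 0 of *Il22*, against totals of at least 22346049 in each. Lipid lowered *Clcf1* (-0.43, SE 0.15, adjusted p = 0.0278, edgeR), which was lower in 3 of 4 letters and lost its call without lipid replicate C or D or untreated replicate B or C (highest adjusted p 0.134). In the presence of itaconate *Ctf1* was the one that fell (-0.54).

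The 16 receptors and signal transducers listed were those of these cytokines and the glucocorticoid receptor *Nr3c1*. With lipid, 11 fell, *Nr3c1* among them, 0 rose and 5 did not pass (median -0.31), against the background of 23.7% lower and 23.8% higher. *Il1r1*, the interleukin 1 receptor, fell by 1.52 (SE 0.094, adjusted p = 1e-08, edgeR), from 103 ± 17.0 to 35.7 ± 4.04 CPM. *Stat3* fell by 0.63, *Osmr*, the oncostatin M receptor, by 0.57, *Myd88* by 0.53 and *Il6st* by 0.44, whereas *Il6ra* was at -0.12 (SE 0.063, adjusted p = 0.129). With lipid in the presence of itaconate, 10 fell, *Il1r1* (-1.30), *Stat3* (-0.52) and *Il6st* (-0.50) most, and *Tyk2* rose (0.30). *Il6ra* was among these 10, a call lost without itaconate replicate C or lipid + itaconate replicate D (highest adjusted p 0.0845, edgeR). Itaconate in lipid-treated cells raised *Il1r1* alone of the list (0.52, SE 0.094, adjusted p = 0.0122), a call lost without lipid replicate D (0.0502) or lipid + itaconate replicate A (0.0646). *Stat3* was at 0.14 (SE 0.039, adjusted p = 0.0652). Without lipid, itaconate changed 0 of the 16 in edgeR, where 4.91% of all genes passed. At an unadjusted p under 0.05 there were 7, against 21.3% of all genes, and 5 of the 16 were below 0. *Il1r1* was at 0.29 there (SE 0.089, adjusted p = 0.0725), higher in 4 of 4 letters. Its interaction of lipid and itaconate did not pass (adjusted p = 0.656, edgeR).

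Of 14 transcription factors of acute phase genes, a list that shares *Stat3* and *Nr3c1* with the previous one, 10 fell with lipid, 1 rose and 3 did not pass (median -0.33), with the same background of 23.7% and 23.8%. *Cebpd* fell by 1.41 (SE 0.13, adjusted p = 6.23e-07, edgeR) and *Nfkbiz*, an atypical IκB that acts on NF-κB targets, by 1.23 (SE 0.073, adjusted p = 8.59e-09). *Cebpb* fell by 0.18 and *Cebpa* rose by 0.39. The call of *Cebpb* was lost without lipid replicate A or B, untreated replicate A or C, or itaconate replicate B (highest adjusted p 0.151). In the presence of itaconate, lipid lowered 9, again led by *Cebpd* (-1.21) and *Nfkbiz* (-0.96), and raised *Cebpa* (0.37). Itaconate in lipid-treated cells raised *Nfkbiz* (0.36, SE 0.074, adjusted p = 0.01995) and *Junb* (0.205, SE 0.047, adjusted p = 0.0324). *Nfkbiz* lost that call without any of 4 libraries, lipid A and D and lipid + itaconate A and B (highest 0.0765), and *Junb* in 8 of 16 omissions (highest 0.117). There *Cebpd* was at 0.31 (SE 0.13, adjusted p = 0.248) and *Cebpb* at 0.22 (SE 0.067, adjusted p = 0.0954). Without lipid, itaconate changed 0 of the 14 in edgeR, and 7 of the 14 were below 0. At an unadjusted p under 0.05 there were 4, against 21.3% of all genes. *Cebpb* was at 0.22 in that comparison too (SE 0.067, adjusted p = 0.0751).

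Of 13 feedback inhibitors of these pathways, 8 fell with lipid, 0 rose and 5 did not pass (median -0.21), where 23.7% of all genes were lower and 23.8% higher. Those that fell included *Socs1* (-1.47), *Tnfaip3* (-0.99), *Socs3* (-0.77) and *Nfkbia* (-0.72). In the presence of itaconate, 8 fell, with *Socs1* at -1.49, and *Cish* and *Pias3* rose. Itaconate in lipid-treated cells raised 3 of them, *Socs3* (0.41, SE 0.066, adjusted p = 0.00501, edgeR), *Tnfaip3* (0.32) and *Nfkbia* (0.19). *Socs3* kept its call there without any single library (highest adjusted p 0.0284), the only one of 11 listed genes called in that comparison to do so, whereas *Tnfaip3* lost it in 8 and *Nfkbia* in 14 of 16 omissions. Without lipid, itaconate changed 0 of the 13 in edgeR, and 4 of the 13 were below 0. At an unadjusted p under 0.05 there were 4, against 21.3% of all genes. *Socs3* was at 0.11 in that comparison (SE 0.063, adjusted p = 0.342). Of 8 glucocorticoid targets, lipid raised *Zbtb16* (0.76) and *Tsc22d3* (0.48) and lowered *Pck1* (-0.61) and *Sgk1* (-0.44), the other 4 not passing, a share in each direction near that of all genes (23.8% higher and 23.7% lower). *Sgk1* lost its call in 6 of 16 omissions (highest 0.0948).

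Of the partners that clear haemoglobin and haem or handle iron, 8 of 10 passed the filter, and 5 fell with lipid and 1 rose. Over all genes tested, 23.7% were lower and 23.8% higher with lipid. The transferrin receptor *Tfrc* changed by -0.60, the iron exporter *Slc40a1* by -0.45, *Hrg* by -0.32 and the ferritin *Fth1* by -0.29, and *Blvrb* rose by 0.14, a call lost in 4 of 16 omissions (highest adjusted p 0.0855). Itaconate raised *Tfrc* in cells without lipid (0.29, SE 0.062, adjusted p = 0.0147, edgeR) and *Slc40a1* in cells with lipid (0.21, SE 0.053, adjusted p = 0.0449). *Tfrc* lost its call without itaconate replicate A or untreated replicate C or D (highest 0.0640), and *Slc40a1* in 13 of 16 omissions (highest 0.180).

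**Figure D4:**
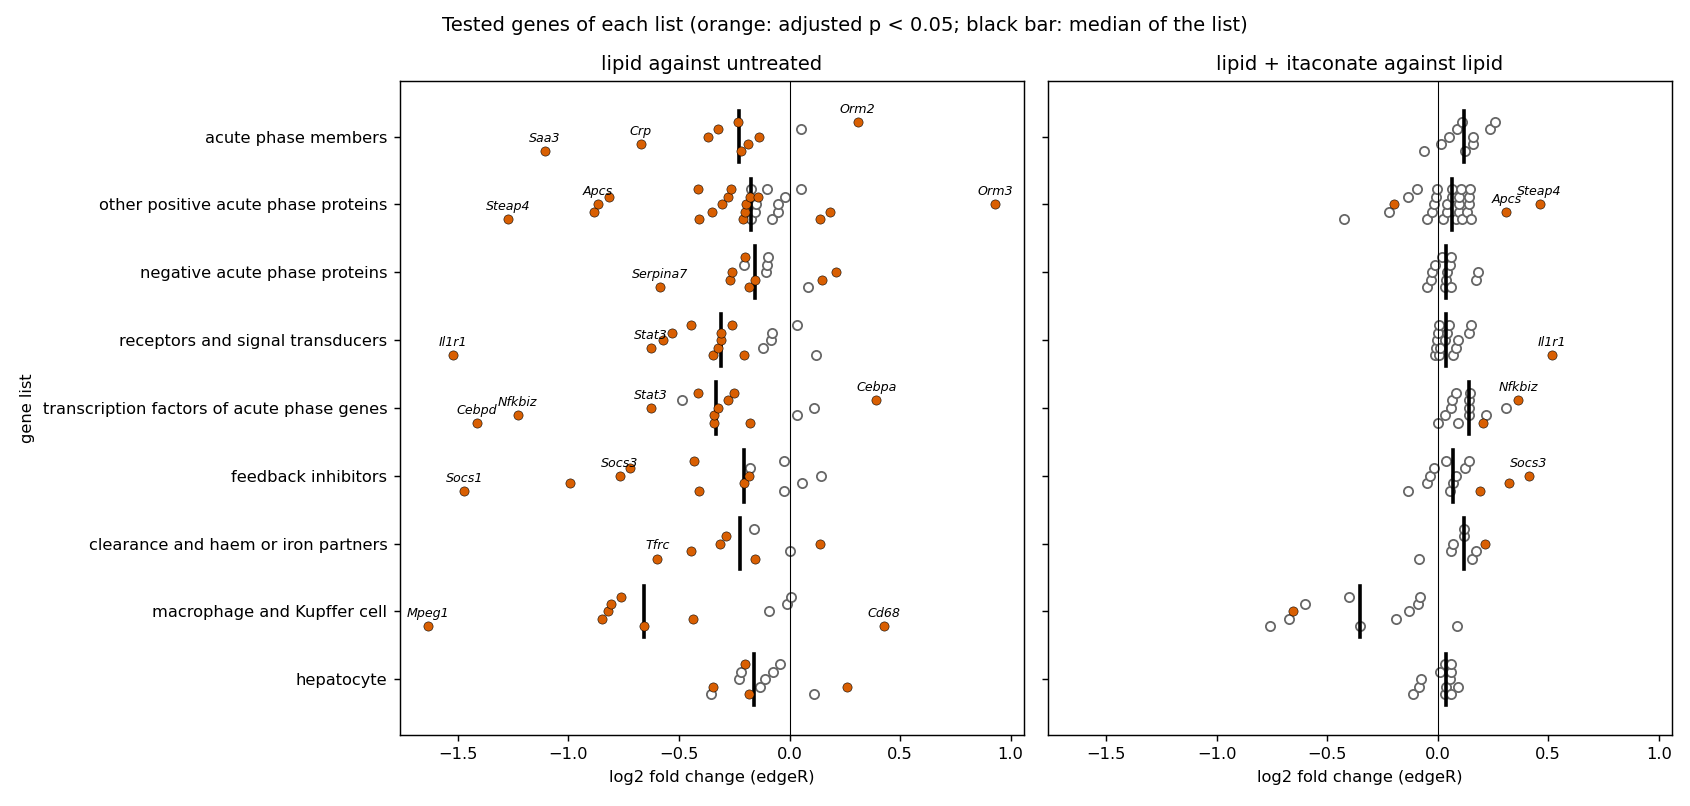
Log2 fold change (horizontal axis) of the tested genes of each list (rows) for lipid against untreated (left) and lipid + itaconate against lipid (right), orange where the adjusted p was under 0.05, with the list's median as a black bar. With lipid most called genes lie left of 0, led by *Mpeg1*, *Il1r1*, *Socs1*, *Cebpd*, *Steap4*, *Nfkbiz* and *Saa3*, and with itaconate in lipid-treated cells the called genes among the acute phase regulators lie right of 0.

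Macrophages also express *Saa3*, and markers of these cells are given beside it. Of 14 macrophage and Kupffer cell markers, 11 passed the filter, 7 of them lower with lipid, 1 higher and 3 not passing, where 23.7% of all genes were lower and 23.8% higher. *Mpeg1* fell by 1.63 (SE 0.15, adjusted p = 4.46e-07, edgeR), *C1qc* by 0.85, *Adgre1* by 0.82 and *Cd5l* by 0.81, whereas *Cd68* rose by 0.43. Summed over the 14 markers, the level was 249 to 339 CPM untreated and 256 to 350 with lipid, most of it *Cd68*. Without *Cd68* the sum was 96.3 to 113 CPM untreated, 89.4 to 104 with itaconate, 45.3 to 64.1 with lipid and 36.1 to 56.3 with lipid + itaconate. No marker was at 0 in all libraries, and 3 (*Vsig4*, *Timd4* and *Ptprc*) averaged under 1 CPM. With lipid in the presence of itaconate, 10 of the 11 fell and *Cd68* rose, where 23.5% of all genes were lower and 23.5% higher. The part of these cells in the fall of *Saa3* was not tested. With itaconate in lipid-treated cells, 1 of the 11 was lower (*C1qb*, -0.655, lost in 5 of 16 omissions) and 0 higher, with a median of -0.35, while *Saa3* was at 0.26.

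*Lcn2* is abundant in neutrophils, but their markers were nearly absent. None of 11 passed the filter, their summed level was 0.0730 to 0.373 CPM in any library, and *Ly6g* had 0 counts, against 543 to 1149 CPM of *Lcn2*. Of the cholangiocyte markers, 3 of 7 passed and all 3 fell with lipid, among them *Spp1* by 0.97 and *Sox9* by 0.37, and the list summed to 613 to 1184 CPM untreated and 344 to 619 with lipid. Stellate cell markers summed to 16.3 to 25.6 CPM and endothelial markers to 13.3 to 27.4 CPM over all libraries. With lipid, the 1 stellate marker tested (*Reln*) did not pass, and 2 of 7 tested endothelial markers did, *Stab2* lower and *Lyve1* higher, both lost without some libraries (highest adjusted p 0.143 and 0.134). Itaconate without lipid changed 4 genes of all these lists, raising *Tfrc* and *Lyz2* and lowering *Cd68* and the endothelial marker *Oit3*, and each of these calls was lost without some library (highest adjusted p 0.0640 for *Tfrc*, 0.0718 for *Lyz2*, 0.0541 for *Cd68* and 0.133 for *Oit3*). Of the 12 hepatocyte markers, 3 fell, among them *Ttr* and *Alb*, *Asgr1* rose and 8 did not pass with lipid (median -0.16), against 23.7% lower and 23.8% higher over all genes. With lipid in the presence of itaconate, 6 fell, 1 rose and 5 did not pass (median -0.19), against 23.5% lower and 23.5% higher. The calls of *Alb*, *Ttr*, *Apob*, *Ass1* and *Hnf4a* there were lost without some libraries (highest adjusted p 0.0796, for *Apob*, edgeR). The part of these cell types in the changes of *Lcn2* and the other members was not tested.

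Likeness of pattern was described by Pearson's r over the 16 libraries, on log2 CPM with each letter's mean removed. These libraries share the treatments and the scaling, so the values are descriptions without a test. Among the members, *Saa1* and *Saa2* were most alike (r = 0.986), followed by *Hp* and *Hpx* (0.944) and *Hp* and *Saa4* (0.939), and *Crp* was at 0.936 with *Saa1* and 0.929 with *Saa3*. *Orm2* was at -0.82 with *Saa3*, and *Orm1* lay between -0.08 and 0.42 with every other member. Among genes with at least 5 CPM outside the members, the closest to *Saa3* were *Cmpk1* (0.985), *Nfkbiz* (0.982) and *Ube2f* (0.982), and to *Crp* *Maff* (0.989), *Upp1* (0.986) and *Syde2* (0.984). *Saa1* was closest to *Hacd1*, *Sirt1* and *Strap* (0.972 to 0.978), and *Saa2* to *Cyp4a12a*, *Hsd17b6* and *Serpina1d* (0.975 to 0.978). *Saa4* was closest to *Cxcl1*, *Ywhaq* and *Aaed1* (0.966 to 0.970), and *Lcn2* to *Mgam*, *Cgn* and *Ikbke* (0.935 to 0.942). *Hp* was closest to *Serpina7* (0.970), *Cd302* and *Wwc1*, and *Hpx* to *Tmem234* (0.926), *Ifnar2* and *Cd302*. *Orm2* was closest to *Fuca1* (0.956), *Blvrb* and *Thoc7*. *Orm1*, which no treatment moved past the threshold, had the weakest neighbours, *Pigf* (0.817), *Ctsf* and *Kctd2*.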

How the data were processed

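RNA of 16 libraries of mouse primary hepatocytes (4 treatments, 4 replicates each) was sequenced as stranded mRNA. Per the study's methods and the submitters' processing notes, the authors demultiplexed reads with bcl2fastq 2.20, trimmed them with cutadapt 1.18, aligned them to mm10 with STAR 2.7.0f, checked them with Picard 2.18.26 and estimated gene expected counts with RSEM 1.3.1 on GENCODE annotation. The deposited expected counts are not normalized, 5.41% of them are not whole, and RSEM divides reads shared between similar genes by estimation. Their later normalization, batch removal and ANOVA were not used here.

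Expected counts were rounded to whole numbers and scaled by TMM. Genes whose mean reached 1 CPM (11675) were tested with the quasi-likelihood test of edgeR 4.0.16 (R 4.3.3) on all 16 libraries, with treatment and replicate letter as terms and Benjamini-Hochberg adjustment over all genes. All 10 acute phase genes passed the filter. SE is the absolute log2 fold change over the root of F. The code was tested on simulated data. TPM used the longest principal transcript. Shares were compared with an exact two-sided permutation test over libraries, which did not take the letter into account.

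The letter was a term because all 24 same-letter pairs of libraries deviated together from their treatment means (correlations 0.144 to 0.469). The 72 pairs of other letters ran from -0.436 to 0.178, with a median of -0.11, so the ranges overlapped. Subtracting the treatment means pulls these values below 0 when same-letter values are above it, so their median is no separate contrast. The comparison is a check on the data, since the labels do not say what a letter is. Alternatives were no letter term, median-ratio scaling, no filter, filterByExpr, the 8 libraries of a comparison alone, DESeq2 1.42.0, summed paralogs, a 1.5-fold minimum, each library left out, and total counts as library size, the last chosen after seeing the data.

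The members and gene lists were chosen with earlier results of these data known. The text gives all members, a fixed set of regulators, up to 4 genes of each list with the largest called change per comparison, and the 3 genes most like each member. Other named genes were chosen after their values were seen. RefSeq promoters were matched by symbol, without an entry for *Orm1* and *Hp*. Some genes of the lists are not reported here by name.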

Additional observations from a re-analysis of the deposited data

How the results depend on the processing

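Of 944 alternative log2 fold changes of the acute phase genes, 900 kept their direction and side of the threshold, 20 lost and 13 gained a call, and 11 changed sign, all of them without a call. Without the replicate block, 3 acute phase genes passed for lipid against untreated and 3 for lipid + itaconate against itaconate, where 9 and 8 passed with it, and 2 in each reached 1.5-fold. Leaving out libraries gave 7 to 9 and 8 to 9. For itaconate against untreated the count of 0 became 1 (*Crp*) with no filter and 1 (*Crp*) with only the 8 libraries. For lipid + itaconate against lipid it became 3 with no filter (*Saa3*, *Hp* and *Crp*), 1 with DESeq2 (*Saa3*) and 0 to 2 without single libraries. The interaction gave 0 under each alternative run. With total counts as library size, an alternative chosen after seeing the data, *Saa2* (adjusted p = 0.0660), *Hpx* (0.369) and *Lcn2* (0.140) lost their calls for lipid against untreated, and *Lcn2* (0.0586) for lipid + itaconate against itaconate. The cause was not tested.

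Sign changes were those of *Orm2* for itaconate against untreated (-0.016 with total counts, and -0.0585 to 0.0507 without single libraries), *Orm1* for lipid + itaconate against lipid (-0.037 with total counts, -0.019 to 0.0425 without single libraries) and against itaconate (0.0245 with total counts), and *Lcn2* for lipid + itaconate against lipid (-0.1225 to 0.0058 without single libraries).

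Over all genes, the count for itaconate against untreated moved from 573 to 23 without the replicate block, 1865 with only the 8 libraries, 1091 with no filter, 82 at 1.5-fold and 149 to 1047 without single libraries. That for lipid + itaconate against lipid moved from 301 to 9, 13, 725 and 54 under the same settings, 509 with DESeq2 and 59 to 889 without single libraries. The lipid counts fell from 5546 to 1142 and from 5483 to 1023 at 1.5-fold. The interaction count of 1 became 231 with no filter, 36 with DESeq2 and 0 to 8 without single libraries. The scaling alternatives shifted the median of all genes by at most 0.0847.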
